A study of Mus musculus with 11 samples.

Results

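Genes of glutamate receptors were examined in mouse dorsal root ganglia (DRGs), as 10 members taken by symbol from a table of 36670 genes. The 10 members are the kainate receptor subunits *Grik1*, *Grik2* and *Grik5*, the AMPA receptor subunits *Gria1*, *Gria2* and *Gria4*, the NMDA receptor subunits *Grin1* and *Grin3a*, and the metabotropic receptors *Grm4* and *Grm7*. All 10 were found once each, and all 10 were tested, along with the other genes whose FPKM averaged 0.5 or more, 15087 in all. FPKM is a transcript level that takes account of transcript length and of library size, so levels of different genes can be compared on it. The samples were 11 RNA-Seq libraries of whole DRGs in 4 groups. The groups were WT controls (WT_V, n = 3), WT mice 4 weeks after paclitaxel (WT_P, n = 3), control mice that lack *Gpr37l1* (KO_V, n = 3) and *Gpr37l1* KO mice 4 weeks after paclitaxel (KO_P, n = 2). Paclitaxel (PTX) is a chemotherapy drug that causes neuropathic pain, and *Gpr37l1* encodes a G protein–coupled receptor of satellite glial cells (SGCs), the glia around sensory neurons. The KO is constitutive, so *Gpr37l1* is missing from every cell type and not from SGCs alone. The line was kept on a C57BL/6 background. In each group the library numbered 3 in the descriptions is labelled female and the others are labelled male, so sex and that number cannot be told apart. The titles number the KO_P libraries differently, with the female one as number 2. The study gives adult mice for its other experiments, and neither an age nor a PTX dose for these libraries was found in the sources used here.

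Glutamate is the transmitter that DRG neurons release in the spinal cord, and the neurons carry receptors for it on their cell bodies and on both ends of their axons. Kainate, AMPA and NMDA receptors are tetrameric channels that open when glutamate binds, whereas the metabotropic receptors of the mGlu4 and mGlu7 type couple to inhibitory G proteins and dampen transmitter release. GluK1, the product of *Grik1*, is the kainate subunit for which small-diameter sensory neurons are best known. In whole ganglia, fewer cells of a type and less RNA per cell cannot be told apart.

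The pore loop of AMPA and kainate subunits holds 1 residue, the Q/R site, at which a glutamine codon can be changed to an arginine codon by RNA editing in the mRNAs of *Gria2*, *Grik1* and *Grik2*. Editing there sets how much calcium the channel passes. The sequences below are reference sequences with the unedited codon, and the editing state in these libraries was not examined. FPKM and counts sum edited and unedited transcripts. The 30 bases of coding sequence around the codon were read from GENCODE release M21 on GRCm38, 5′ to 3′ on the coding strand, with the glutamine codon in capitals:
*Grik1*: gttggagctctcatgCAGcaaggatcggag
*Grik2*: gttggagctctcatgCAGcaaggttctgag
*Grik5*: gtgggtggcttcatgCAGcagggctcggag
*Gria1*: ctgggggccttcatgCAGcaaggatgtgac
*Gria2*: ttgggtgcctttatgCAGcaaggatgcgat
*Gria4*: ctgggtgcctttatgCAAcaaggatgtgac
The place was found as the only stretch of the protein that reads Met-Gln-Gln-Gly, so part of the 30 bases codes for the same residues by choice. A glutamine codon at this place in all 6 genes was likewise fixed by the search. It is CAG in 5 of them and CAA in *Gria4*. *Grik1* and *Grik2* shared 28 of 30 bases, *Gria1* and *Gria4* 27 of 30, and *Grik5* shared at most 23 of 30 with any other member. The codons lie on GRCm38 at chr16:87940542-87940544 for *Grik1* (minus strand, exon 13 of 18), chr10:49244329-49244331 for *Grik2* (minus strand, exon 12 of 16) and chr7:25022497-25022499 for *Grik5* (minus strand, exon 15 of 20). Those of the AMPA subunits lie at chr11:57243094-57243096 for *Gria1* (plus strand, exon 11 of 16), chr3:80706911-80706913 for *Gria2* (minus strand, exon 11 of 16) and chr9:4464137-4464139 for *Gria4* (minus strand, exon 12 of 17). The windows of *Grik1* and *Grik2* span 2 exons each.

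Some facts about the libraries touch the results below. Estimated counts summed to 52735648 to 80348732 per library, with a median of 75538569. Totals from 52735648 to 56747335 were found in 4 libraries, namely WT_V 1, WT_P 3, KO_P 2 and KO_P 3, and the other 7 had at least 68821582. The KO_P group therefore held only libraries of low total. *Gpr37l1*, the targeted gene, was at 14.6 to 35.7 FPKM in the 6 WT libraries and at 0.21 to 1.15 FPKM in the 5 KO libraries. All 18 sensory neuron markers passed the filter, with summed levels of 3247 to 4217 FPKM per library. The 14 markers of spinal cord neurons and glia, tissue that a DRG should lack, summed to 9.32 to 30.5 FPKM in the 4 libraries of low total and to 4.75 to 7.67 FPKM in the other 7.

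The members covered a wide range of levels, and *Grik1* stood far above the rest. Over the 11 libraries the mean was 52.1 ± 8.96 FPKM for *Grik1* (SD, n = 11), above 97.8% of all genes in the table. *Grin1* had 11.4 ± 0.80 FPKM, *Grm7* 10.96 ± 1.34 FPKM, *Gria4* 10.2 ± 1.31 FPKM and *Grik5* 8.77 ± 0.83 FPKM. *Grm4* with 4.91 ± 0.50 FPKM and *Gria1* with 3.83 ± 0.69 FPKM came next. *Gria2* with 1.94 ± 0.32 FPKM, *Grin3a* with 1.75 ± 0.13 FPKM and *Grik2* with 0.96 ± 0.12 FPKM were the lowest, and *Grik2* still lay above 64.0% of all genes. Neighbours in this order were compared within each library as the log2 ratio of FPKM + 1, by sign-flip permutation (exact, two-sided) with adjustment over the 9 pairs. The order came from the means of the same libraries, so the pairs and their direction were not chosen independently of the values tested. For 5 pairs the order held in all 11 libraries, each with an exact permutation p of 0.000977, the smallest value that 11 libraries allow, and an adjusted p of 0.00176. These were *Grik1* over *Grin1* (log2 ratio 2.08 ± 0.22), *Grik5* over *Grm4* (0.73 ± 0.17), *Grm4* over *Gria1* (0.30 ± 0.18), *Gria1* over *Gria2* (0.71 ± 0.13) and *Grin3a* over *Grik2* (0.49 ± 0.08). *Grin1*, *Grm7*, *Gria4* and *Grik5* were not resolved from their neighbours, with log2 ratios of 0.05 ± 0.17, 0.09 ± 0.15 and 0.19 ± 0.28 and adjusted p of 0.33, 0.085 and 0.082 in the exact sign-flip test. *Gria2* was above *Grin3a* in 7 of 11 libraries (0.09 ± 0.15, adjusted p = 0.093, exact sign-flip test). Single libraries decided some of these calls. Without WT_V 1, *Gria4* over *Grik5* was 0.26 with an adjusted p of 0.0088, and *Grm7* over *Gria4* had an adjusted p of 0.035 without WT_V 2 and of 0.041 without KO_V 2 (exact sign-flip tests). With the 3 WT_V libraries alone, where p cannot go below 0.25, the ratio of *Gria4* to *Grik5* turned to -0.08 and that of *Gria2* to *Grin3a* to -0.0049.

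**Figure D1:**
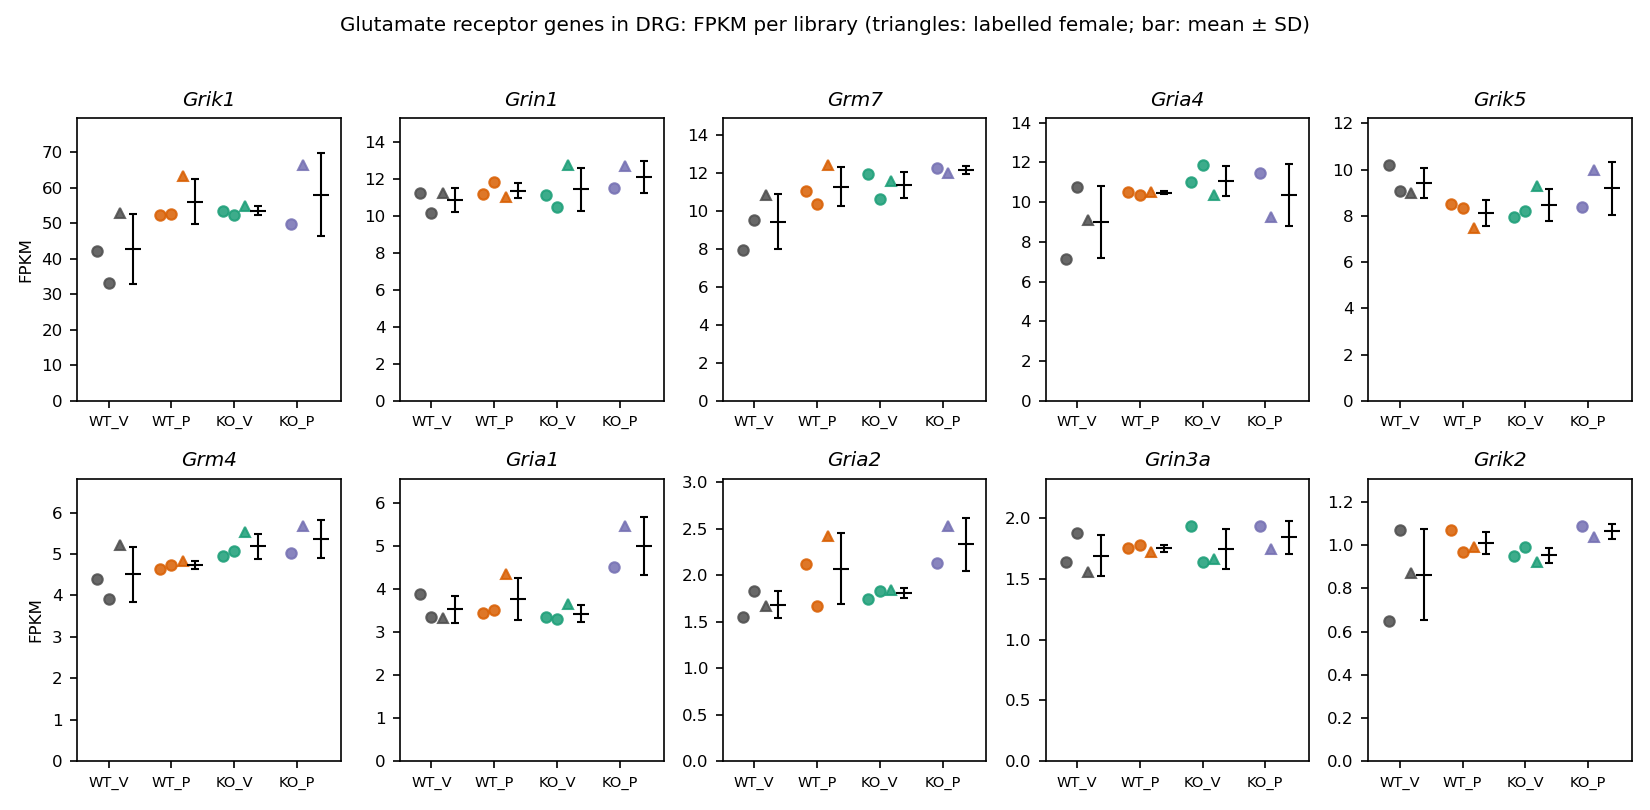
FPKM of the 10 genes (y axis, from 0) in each library of the 4 groups (x axis), with triangles for libraries labelled female, circles for those labelled male, and a bar for the mean ± SD of the group. *Grik1* ranges from 33.0 to 66.3 FPKM with its lowest value in WT_V, and both KO_P libraries of *Gria1* lie above the other 9.

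*Grik1* (chr16:87895900-88290265 on mm10, minus strand) was the most abundant kainate subunit and the member that varied most between libraries, 2.01-fold from lowest to highest. The WT controls had 42.3, 33.0 and 52.8 FPKM in libraries 1, 2 and 3, and the PTX-treated WT mice 52.2, 52.6 and 63.3 FPKM. The KO controls had 53.4, 52.4 and 54.9 FPKM, and the PTX-treated KO mice 49.8 and 66.3 FPKM in libraries 2 and 3. WT_V 1 and WT_V 2 were thus lower than every other library, and WT_V 3 lay within the range of the other groups. The group means were 42.7 ± 9.89 FPKM in WT_V, 56.0 ± 6.31 FPKM in WT_P, 53.6 ± 1.27 FPKM in KO_V (SD, n = 3 each) and 58.0 ± 11.7 FPKM in KO_P (SD, n = 2).

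*Grik2* (chr10:49094833-49788766, minus strand), which encodes GluK2, was near the floor of the filter. It had 0.65, 1.07 and 0.87 FPKM in WT_V, 1.07, 0.97 and 0.99 FPKM in WT_P, 0.95, 0.99 and 0.92 FPKM in KO_V, and 1.09 and 1.04 FPKM in KO_P. WT_V 1 stood lowest, and the remaining 10 libraries spanned 0.87 to 1.09 FPKM. *Grik5* (chr7:25009849-25072292, minus strand) encodes GluK5, which forms channels only together with GluK1, GluK2 or GluK3. It had 10.2, 9.09 and 9.0 FPKM in WT_V, 8.51, 8.35 and 7.49 FPKM in WT_P, 7.97, 8.19 and 9.27 FPKM in KO_V, and 8.38 and 9.99 FPKM in KO_P. *Grik5* was the only member whose PTX-treated WT libraries all lay below the WT controls.

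*Gria4* (chr9:4417896-4796234, minus strand) was the most abundant AMPA subunit. It had 7.11, 10.8 and 9.12 FPKM in WT_V, 10.5, 10.4 and 10.5 FPKM in WT_P, 10.99, 11.8 and 10.3 FPKM in KO_V, and 11.5 and 9.27 FPKM in KO_P. The low value of WT_V 1 stood apart, and the groups overlapped. *Gria1* (chr11:57011387-57330244, plus strand) had 3.88, 3.36 and 3.33 FPKM in WT_V, 3.45, 3.52 and 4.34 FPKM in WT_P, 3.34, 3.30 and 3.65 FPKM in KO_V, and 4.52 and 5.47 FPKM in KO_P. Both KO_P libraries were above all 9 others. *Gria2* (chr3:80681450-80802835, minus strand) encodes GluA2, the subunit that makes edited AMPA receptors nearly impermeable to calcium. It had 1.55, 1.83 and 1.67 FPKM in WT_V, 2.12, 1.67 and 2.42 FPKM in WT_P, 1.74, 1.83 and 1.84 FPKM in KO_V, and 2.13 and 2.53 FPKM in KO_P. The 4 highest values all came from PTX-treated mice, and WT_P 2 lay at the control level.

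*Grin1* (chr2:25291181-25319187, minus strand) encodes GluN1, the obligatory subunit of NMDA receptors, and was among the steadiest members, with a highest value 1.26 times the lowest. It had 11.2, 10.1 and 11.2 FPKM in WT_V, 11.2, 11.8 and 11.02 FPKM in WT_P, 11.1, 10.5 and 12.7 FPKM in KO_V, and 11.5 and 12.7 FPKM in KO_P. *Grin3a* (chr4:49661611-49845744, minus strand) encodes GluN3A, which lowers the calcium permeability of NMDA receptors and their block by magnesium. It had 1.64, 1.88 and 1.56 FPKM in WT_V, 1.76, 1.78 and 1.72 FPKM in WT_P, 1.94, 1.64 and 1.67 FPKM in KO_V, and 1.94 and 1.75 FPKM in KO_P. The groups overlapped for both genes in each of the 4 pairwise comparisons described below. The antisense gene *Grin1os* overlaps *Grin1*, and *Ppp3r2* lies within *Grin3a* on the same strand. For *Grin3a*, reads of *Ppp3r2* in shared sequence could be counted to either gene.

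*Grm7* (chr6:110645581-111566067, plus strand) encodes mGlu7, a receptor of presynaptic release sites. It had 7.93, 9.52 and 10.8 FPKM in WT_V, 11.1, 10.4 and 12.4 FPKM in WT_P, 11.96, 10.6 and 11.6 FPKM in KO_V, and 12.3 and 12.01 FPKM in KO_P. WT_V 1 and WT_V 2 were the lowest libraries, and both KO_P libraries were above all KO controls. *Grm4* (chr17:27422387-27513726, minus strand) encodes mGlu4. It had 4.39, 3.91 and 5.22 FPKM in WT_V, 4.63, 4.73 and 4.84 FPKM in WT_P, 4.96, 5.06 and 5.52 FPKM in KO_V, and 5.03 and 5.68 FPKM in KO_P. Both KO_P libraries of *Grm4* were above all WT_P libraries. Across members, WT_V 1 held the lowest value of 4 of the 10 genes (*Grik2*, *Gria2*, *Gria4* and *Grm7*) and the highest value of *Grik5*, and KO_P 3 held the highest value of 4 (*Grik1*, *Gria1*, *Gria2* and *Grm4*).

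The first question was whether PTX shifted these receptors in WT ganglia. None of the 10 members passed an adjusted p of 0.05 in edgeR, a threshold that 0.00663% of all genes passed, 1 of 15087. An unadjusted p under 0.05 was found for 4 of 10, against 13.5% of all genes. *Grik1* had the largest fitted log2 fold change, 0.40 (SE 0.11, 95% CI 0.15 to 0.64, adjusted p = 0.24), an increase of 31.8% on the linear scale. *Grm7* had 0.26 (SE 0.094, adjusted p = 0.32), *Gria2* 0.29 (SE 0.12, adjusted p = 0.36) and *Grik5* -0.22 (SE 0.098, adjusted p = 0.37). Of the other tools, limma called 0 of 10 and DESeq2 called *Grik1* alone. DESeq2 gave it a log2 fold change of 0.40 with an adjusted p of 0.028, in a comparison where that tool called 2.05% of all genes. Leaving out WT_V 2 took the edgeR value of *Grik1* to 0.28, and leaving out WT_V 3 took it to 0.48. Groups did not overlap for 1 of 10 members, *Grik5*, against 14.2% of all genes. The median log2 fold change was 0.15 over the members and -0.0058 over all genes tested. Markers of other cells were read in the same fit, and none passed after adjustment. All 8 macrophage markers had a log2 fold change below 0, with a median of -0.54 and an unadjusted p under 0.05 for 6 of 8, and the medians were -2.79 over 9 skeletal muscle markers and -0.50 over 7 blood markers, with none of either list above 0. The sensory neuron markers had a median of 0.016 and ran from -0.74 to 0.33, with 10 of 18 above 0. An unadjusted p under 0.05 was found for 7 of 18 of them, 3 up and 4 down. Of 8 myelinating Schwann cell markers 1 was above 0 (median -0.095), and of 4 spinal cord markers tested 3 were (median 0.16). The part of these cell types in the members' values was not tested. Without the libraries of low total (WT_V 1 and WT_P 3 in this comparison), a choice made after the data were seen, *Grik1* stood at 0.46 (SE 0.16, adjusted p = 0.43), whereas *Grm7* went to 0.11, *Gria2* to 0.080 and *Grik5* to -0.066. *Grin1* went from 0.06 to 0.19 there (SE 0.063, unadjusted p = 0.022 and adjusted p = 0.42 in edgeR).

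The second question was whether loss of *Gpr37l1* alone shifted them. Between KO and WT controls, 0 of 10 members passed in edgeR, where 0.00663% of all genes did, and 4 of 10 had an unadjusted p under 0.05, against 7.54% of all genes. The 4 were *Grik1* with a log2 fold change of 0.35 (SE 0.11, 95% CI 0.10 to 0.59), *Grm7* with 0.28 (SE 0.094), *Gria4* with 0.30 (SE 0.13) and *Grm4* with 0.21 (SE 0.084). Their adjusted p was 0.66 in each case. This comparison and the one before it share the 3 WT_V libraries, so the low *Grik1* and *Grm7* values of WT_V 1 and WT_V 2 enter both. DESeq2 and limma also called 0 of 10. The median log2 fold change was 0.12 over the members and 0.0032 over all genes tested. Taken without regard to library number, the groups overlapped in all 10 members, and 9.28% of all genes had groups that did not. The labels state no pairing, but same-numbered libraries of these 2 groups correlated by the rule used. Between them, *Grik1*, *Gria4*, *Grm4* and *Grm7* were higher in KO in 3 of 3 pairs. That is 4 of 10 members against 14.4% of all genes, and no member was lower in all 3. These are the same 4 genes as above in the same libraries, so the pairs are not a separate test. Number 3 is the library labelled female in both groups. With the number as a block, 0 of 10 were called, and *Grik1* had 0.35 (SE 0.11, adjusted p = 0.68 in edgeR). Of the 8 macrophage markers, 2 had a log2 fold change above 0 in this comparison, with a median of -0.26. The median was -0.50 over 9 skeletal muscle markers, with 1 above 0, and -0.57 over 7 blood markers, with 0 above 0. Of 18 sensory neuron markers, 11 were above 0 (median 0.025). Of 8 SGC markers, 4 were above 0 (median 0.026), and 3 had an unadjusted p under 0.05. The part of these cell types in the members' values was not tested. *Gria4* depended on WT_V 1, without which it stood at 0.14, and *Grik1* on WT_V 2, without which it stood at 0.22.

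In KO mice, PTX was compared with 2 treated and 3 control libraries. Again 0 of 10 members passed in edgeR, where 0.00663% of all genes did, and 2 of 10 had an unadjusted p under 0.05, against 4.32% of all genes. *Gria1* had the largest log2 fold change of any member in any of these comparisons, 0.51 (SE 0.13, 95% CI 0.23 to 0.79, unadjusted p = 0.0022, adjusted p = 0.999), an increase of 42.8% on the linear scale. *Gria2* had 0.34 (SE 0.14, 95% CI 0.029 to 0.65, adjusted p = 0.999). The other 8 lay between -0.08 and 0.17, and the median was 0.082 over the members and -0.0089 over all genes tested. DESeq2 and limma also called 0 of 10, with an adjusted p of 0.081 for *Gria1* in DESeq2. Both KO_P libraries were above all KO_V libraries in 4 of 10 members (*Grik2*, *Gria1*, *Gria2* and *Grm7*) and below them in none, against 21.6% of all genes without overlap in either direction. Both KO_P libraries were of low total, and no KO_V library was. All 4 spinal cord markers tested were above 0 (median 0.86), as were 0 of 9 skeletal muscle markers (median -1.51) and 0 of 8 myelinating Schwann cell markers (median -0.21). Of 8 macrophage markers 1 was above 0 (median -0.20), and of 7 blood markers 0 were (median -0.46). Of 18 sensory neuron markers, 10 were above 0 (median 0.031). The part of library total and these cell types in the members' values was not tested. *Gria1* stood at 0.43 without KO_P 3 and at 0.62 without KO_P 2, each of which leaves a single treated library.

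After PTX, KO against WT gave 0 of 10 members past the threshold in edgeR, where 0.0133% of all genes passed, and 1 of 10 with an unadjusted p under 0.05, against 3.55% of all genes. That member was *Gria1*, with a log2 fold change of 0.38 (SE 0.13, 95% CI 0.10 to 0.67, adjusted p = 0.993). *Grik1* and *Gria4* were at -0.0053 and -0.00080 with 95% CIs of -0.28 to 0.27 and -0.33 to 0.33. Groups did not overlap for 2 of 10 members, *Gria1* and *Grm4*, both higher in KO, against 20.2% of all genes. The median log2 fold change was 0.092 over the members and -0.0089 over all genes. DESeq2 and limma also called 0 of 10. Both KO_P libraries were of low total, and of the WT_P libraries only WT_P 3 was. All 4 spinal cord markers tested were above 0 (median 0.86), as were 0 of 7 blood markers (median -0.53) and 1 of 8 myelinating Schwann cell markers (median -0.12). Of 18 sensory neuron markers, 13 were above 0 (median 0.030). The part of library total and these cell types in the members' values was not tested.

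**Figure D2:**
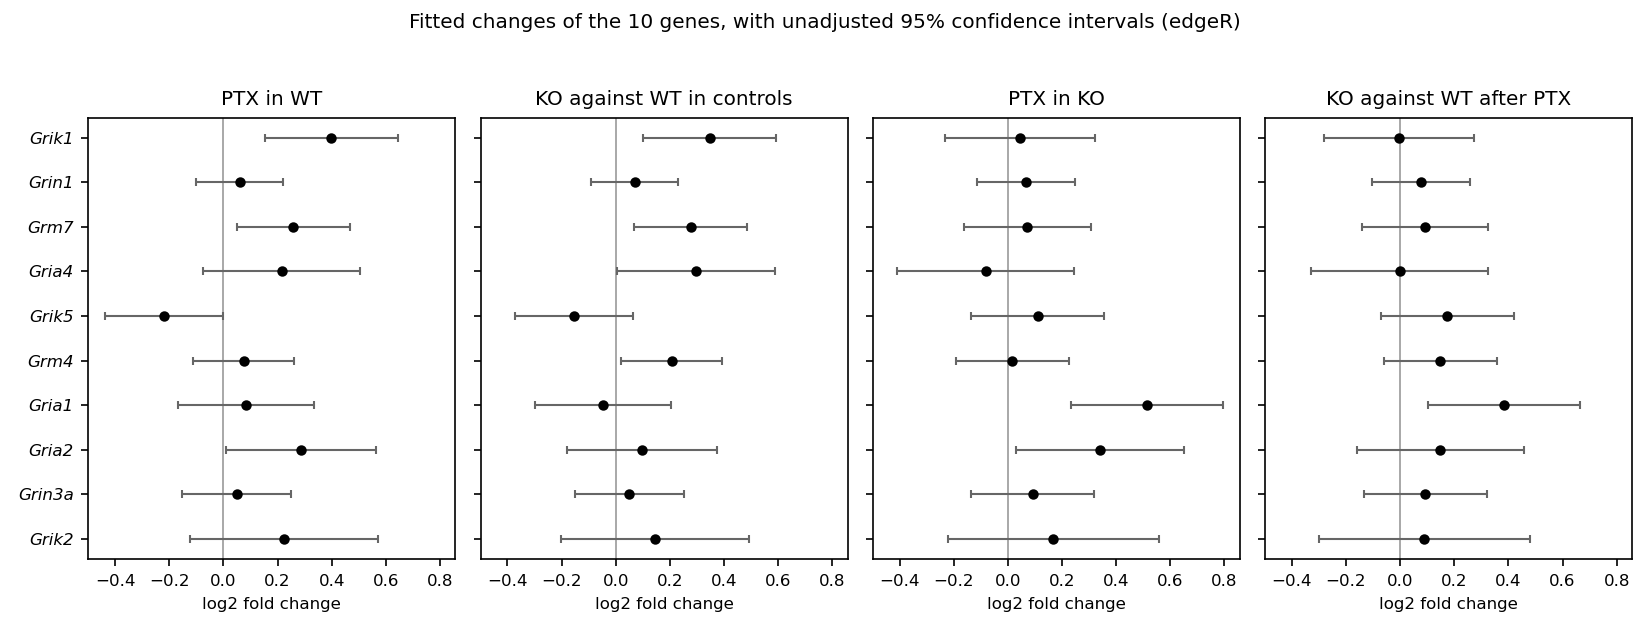
Log2 fold changes of the 10 genes (x axis) in the 4 pairwise comparisons, with points for the edgeR estimate and bars for its 95% confidence interval before adjustment. Intervals that exclude 0 belong to *Grik1* and *Grm7* in both comparisons with WT controls and to *Gria1* in both comparisons with KO_P, among others, and no member passes after adjustment over 15087 genes.

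A test of the difference between the PTX effects in KO and in WT called 0 of 10 members, with 0.00663% of all genes called and 6.3% at an unadjusted p under 0.05. An unadjusted p under 0.05 was found for 2 of 10 members, *Gria1* at 0.43 (SE 0.17, 95% CI 0.054 to 0.81) and *Grik5* at 0.33 (SE 0.15, 95% CI 0.0014 to 0.66). *Grik1* was at -0.35 with an interval of -0.73 to 0.019. The adjusted p was 0.72 for each of these genes. Averaged over both genotypes, PTX gave 0 of 10 members called (0.0133% of all genes) and 4 of 10 with an unadjusted p under 0.05 (9.36% of all genes). These were *Gria1* at 0.30 (SE 0.085), *Gria2* at 0.31 (SE 0.094), *Grik1* at 0.22 (SE 0.083) and *Grm7* at 0.17 (SE 0.070), with adjusted p from 0.44 to 0.51. Averaged over both treatments, KO against WT also gave 0 of 10 called (0.0133% of all genes), and *Grm4* at 0.18 (SE 0.063) and *Grm7* at 0.18 (SE 0.070) were the 2 of 10 with an unadjusted p under 0.05 (3.75% of all genes). All 10 members had a log2 fold change above 0 in that comparison, with a median of 0.14, as had 50.7% of all genes tested.

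*Gria1* moved with the library totals as well as with the groups. The 4 libraries of low total had 3.88 (WT_V 1), 4.34 (WT_P 3), 4.52 (KO_P 2) and 5.47 FPKM (KO_P 3), and the other 7 had 3.30 to 3.65 FPKM. It was the only 1 of the 10 members with all 4 of these libraries above the other 7, an order held by 0.848% of all genes tested. That order was also found for 7 of the 14 spinal cord markers. *Mobp*, of oligodendrocytes, was at 1.16 to 6.11 FPKM in the 4 libraries and at 0.04 to 0.25 FPKM in the others, and *Gad1*, of inhibitory neurons, was at 0.60 to 1.73 against 0.07 to 0.10 FPKM. *Slc32a1*, the vesicular transporter of inhibitory neurons, was at 0.17 to 1.64 FPKM in the 4 libraries and listed at 0 in the other 7. The astrocyte transporter *Slc1a2* was at 1.74 to 4.98 against 0.26 to 0.42 FPKM. KO_P 3 was the highest library for *Gria1* and for the marker sum, whereas *Gria4* at 7.11 to 11.5 FPKM and *Grin3a* at 1.64 to 1.94 FPKM in the 4 libraries overlapped the others. Within the other libraries, PTX in WT gave *Gria1* a log2 fold change of 0.076 (SE 0.092, adjusted p = 0.83), and both KO_P libraries belong to the 4. The part of library total and spinal cord transcripts in the KO_P values of *Gria1* was not tested.

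**Figure D3:**
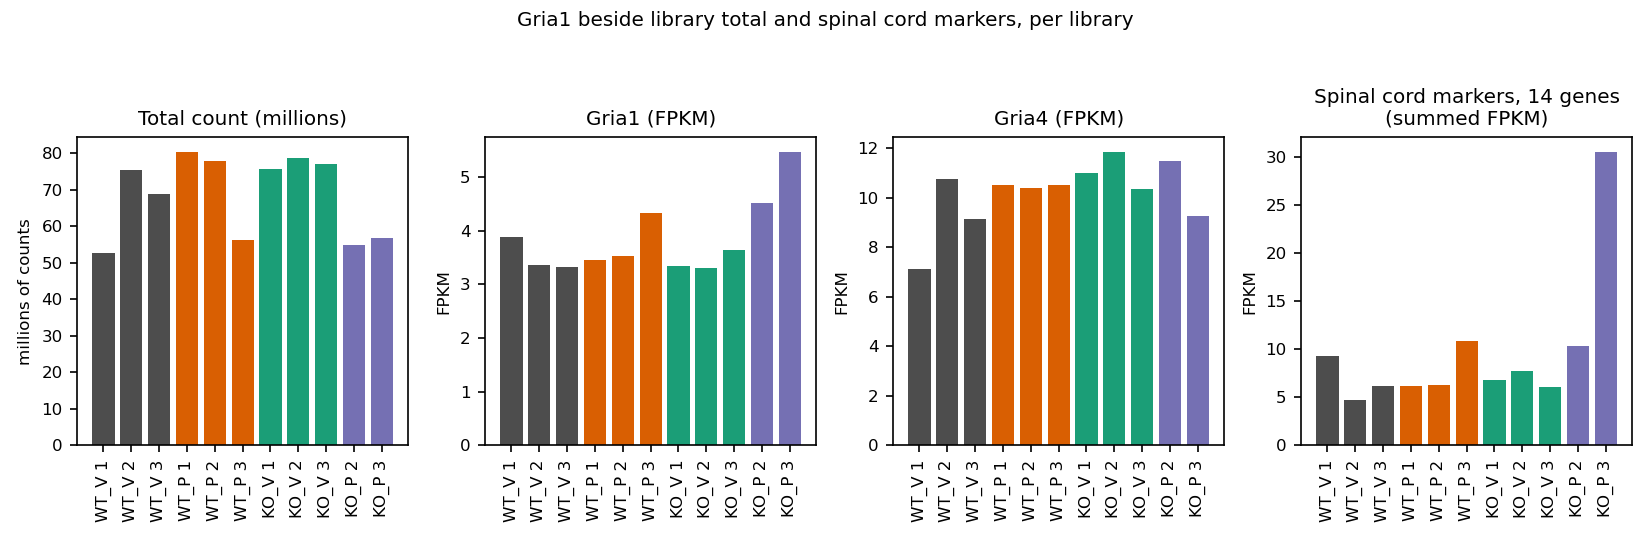
Total count, *Gria1* and *Gria4* in FPKM, and the summed FPKM of 14 spinal cord markers (y axes, from 0) in each of the 11 libraries (x axes, coloured by group). The 4 libraries under 60000000 counts are the 4 highest for *Gria1* (3.88 to 5.47 FPKM) and for the spinal cord markers (9.32 to 30.5 FPKM), and *Gria4* does not follow them.

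The subunit make-up of the ionotropic receptors was compared as shares of summed FPKM. Among kainate subunit transcripts, *Grik1* made up 70.8% ± 3.87 (SD, n = 11), *Grik4* 12.5% ± 1.02, *Grik5* 12.2% ± 2.28, *Grik3* 3.21% ± 0.72 and *Grik2* 1.34% ± 0.26. Among AMPA subunit transcripts, *Gria4* made up 55.3% ± 4.67, *Gria1* 20.8% ± 3.28, *Gria3* 13.3% ± 0.94 and *Gria2* 10.5% ± 1.10. *Gria2* was the smallest of the 4 AMPA shares on average and spanned 9.38% to 12.6% over libraries. *Grin3a* made up 66.5% ± 6.16 of the transcripts of *Grin3a* and the GluN2 genes *Grin2a* to *Grin2d*, and *Grin2d* was the highest of the GluN2 genes at 0.49 to 0.95 FPKM.

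Of these shares, 3 were tested between groups by exact two-sided permutation in 6 comparisons each, with adjustment over all 18 tests. The *Gria2* share was 9.93% ± 0.43 in the 6 control libraries and 11.2% ± 1.32 in the 5 PTX libraries (exact permutation p = 0.061, adjusted p = 0.36). The share of *Grik4* plus *Grik5*, the subunits that need a GluK1 to GluK3 partner, was 28.3% ± 3.79 in WT_V, 23.0% ± 2.47 in WT_P and 23.6% ± 0.65 in KO_V (SD, n = 3 each), and 23.4% ± 1.77 in KO_P (SD, n = 2). Its difference of -4.72 percentage points between KO and WT controls had the smallest p that 3 against 3 libraries allow (exact permutation p = 0.1, adjusted p = 0.36). In libraries 1, 2 and 3 the share was 29.3%, 31.5% and 24.12% in WT_V and 22.9%, 23.8% and 24.11% in KO_V. The separation of the groups thus rested on WT_V 3 and KO_V 3, which were nearly equal. WT_V 1 and WT_V 2, with the highest shares, were also the lowest libraries for *Grik1*. The *Grin3a* share was 58.2% ± 8.86 in KO_P against 69.9% ± 3.80 in WT_P (exact permutation p = 0.1, adjusted p = 0.36), and its lowest value, 51.9%, was that of KO_P 3. The difference of -11.7 percentage points became -5.41 without KO_P 3 and -17.9 without KO_P 2. Both KO_P libraries were of low total. The low-total libraries WT_V 1 (62.4%) and WT_P 3 (65.6%) were the lowest of their groups for the *Grin3a* share. WT_P 3 and KO_P 3 also held the highest *Gria2* shares, 12.2% and 12.6%, whereas WT_V 1 and KO_P 2 had 10.5% and 10.3%. The part of library total in these shares was not tested. No share passed in any of the 18 tests, and pairwise comparisons of these group sizes could not have reached 0.05.

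**Figure D4:**
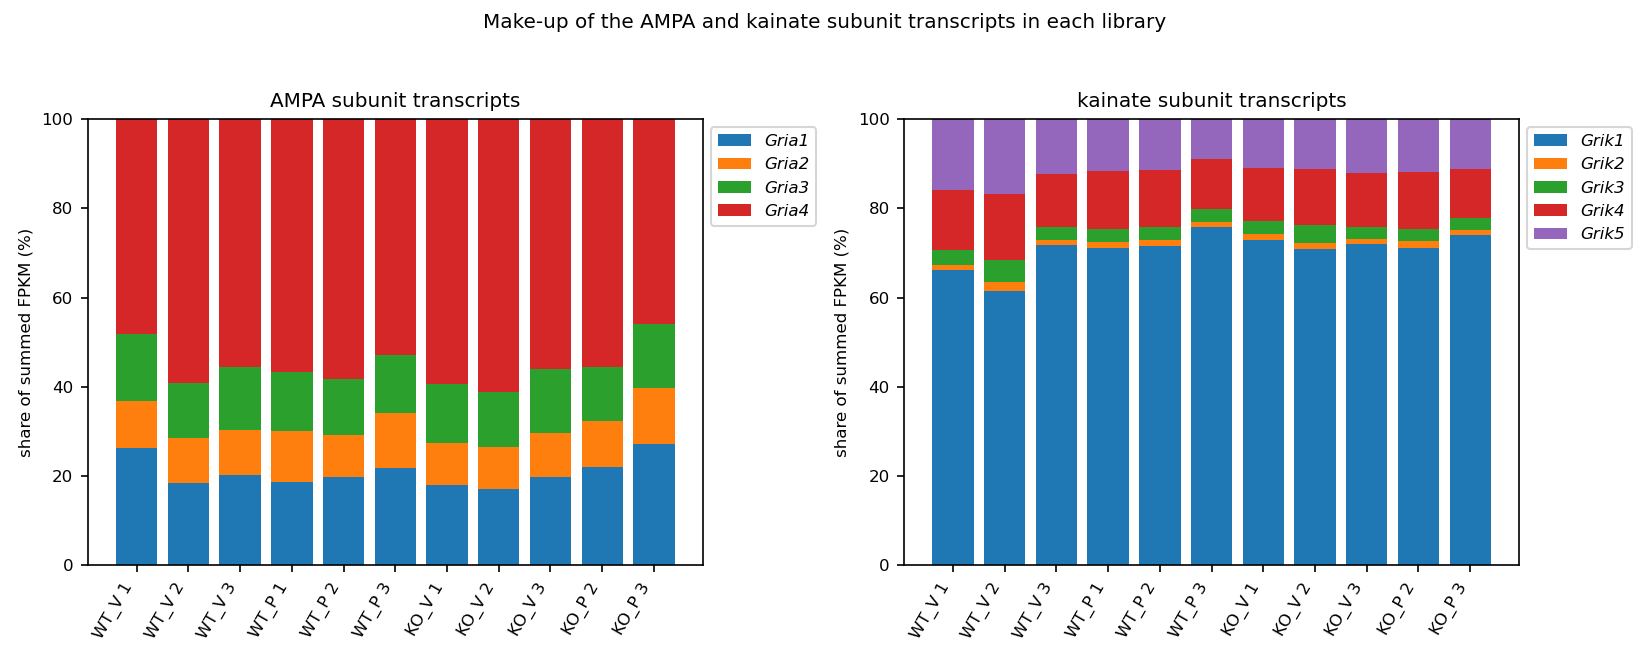
Share of each subunit in the summed FPKM of the AMPA (left) and kainate (right) subunit genes (y axis, percent) in each library (x axis). *Grik1* holds 61.4% to 75.7% of the kainate transcripts and *Gria4* 46.0% to 61.1% of the AMPA transcripts, and each is the largest share of its family in every library.

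*Grik1* and *Grm4* were highest in the library labelled female in each of the 4 groups. That pattern was noticed after the data were seen. It held for 2 of 10 members and for 4.18% of all genes tested. Female against male gave 0 of 10 members called in edgeR, where 0.0398% of all genes were, and 2 of 10 with an unadjusted p under 0.05, against 8.44% of all genes. The log2 fold change was 0.29 (SE 0.085, 95% CI 0.10 to 0.48, adjusted p = 0.45) for *Grik1* and 0.16 (SE 0.065, 95% CI 0.019 to 0.31, adjusted p = 0.55) for *Grm4*. Sex was a covariate in all fits above except the one with the number as a block, which had no sex term.

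Other genes of glutamate signalling were followed as 4 lists, of which 41 of 54 genes passed the filter. In every comparison 0 of 41 were called by edgeR, DESeq2 or limma. For PTX in WT, edgeR called 0.00663% of all genes and DESeq2 2.05%. An unadjusted edgeR p under 0.05 was found for 3 of 41 for PTX in WT, against 13.5% of all genes. For KO against WT controls it was found for 2 of 41 (7.54% of all genes). It was found for 6 of 41 for PTX in KO (4.32%) and for 6 of 41 between KO and WT after PTX (3.55%). Of 16 further receptor genes, 6 passed the filter. *Grik4* at 9.06 FPKM, *Gria3* at 2.44 FPKM and *Grik3* at 2.31 FPKM had the highest means, followed by *Grid1*, *Grm8* and *Grin2d*. *Grm5*, a metabotropic receptor that excites neurons, was at 0.21 FPKM on average, and *Grin2a* and *Grin2b* at 0.052 and 0.045 FPKM. Each of these 3 genes was higher in each of the 4 libraries of low total than in the other 7, with *Grm5* at 0.25 to 0.66 against 0.08 to 0.13 FPKM. The counts of further receptors with an unadjusted p under 0.05 were 2 of 6 for PTX in WT (*Grik4* at 0.18 and *Grm8* at 0.27), 1 of 6 for KO against WT controls (*Grm8* at 0.32), 1 of 6 for PTX in KO (*Grin2d* at 0.49) and 1 of 6 between KO and WT after PTX (*Grin2d* at 0.63). *Grin2d* was at 0.68 and 0.95 FPKM in KO_P 2 and KO_P 3, and without KO_P 3 it went to 0.20 for PTX in KO and to 0.34 between KO and WT after PTX.

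Of 15 genes of auxiliary subunits, 13 passed the filter. *Grina*, named for an NMDA receptor association, had 254.6 FPKM, *Cacng7*, a regulator of AMPA receptor trafficking, 36.4 FPKM and *Cnih2*, an AMPA receptor chaperone, 9.04 FPKM. *Neto1* and *Neto2*, the auxiliary subunits of kainate receptors, had 1.52 and 4.81 FPKM. Their list had a median log2 fold change of -0.055 for PTX in WT, -0.0041 for KO against WT controls, 0.21 for PTX in KO and 0.20 between KO and WT after PTX, beside -0.0058, 0.0032, -0.0089 and -0.0089 over all genes tested. In the last of these all 13 were above 0, against 47.7% of all genes tested, and for PTX in KO 11 of 13 were, against 47.3%. The 4 spinal cord markers tested were above 0 in both comparisons, with medians of 0.86 in each, and both KO_P libraries were of low total. The part of either in the values of this list was not tested. Between KO and WT after PTX, 1 of 13 had an unadjusted p under 0.05, *Cacng7* at 0.21 (0.12 without KO_P 3), against 3.55% of all genes. For PTX in KO it was also 1 of 13, *Gsg1l* at 0.50, against 4.32% of all genes. Among 13 scaffold genes, 12 were tested, and *Dlg4* (PSD-95) at 12.5 FPKM, *Pick1* at 5.85 FPKM and *Grip1* at 4.13 FPKM had the highest means. *Shank1* had an unadjusted p under 0.05 both for PTX in KO, at 0.42, and between KO and WT after PTX, at 0.47, comparisons that share the KO_P libraries, and its KO_P 3 value of 2.47 FPKM was the highest of all libraries. Without that library *Shank1* went to 0.23 and 0.28.

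The genes of glutamate supply were all tested. *Glul*, the glutamine synthetase of SGCs, had 103.5 FPKM, and the vesicular transporters *Slc17a6* and *Slc17a7* had 48.1 and 31.3 FPKM. *Slc17a8*, the third vesicular transporter, had a log2 fold change of 0.42 for PTX in WT (SE 0.14, adjusted p = 0.30 in edgeR). It was the 1 of 10 genes of its list with an unadjusted p under 0.05 there, against 13.5% of all genes. *Slc1a2* and *Slc1a3*, glial glutamate transporters, were the 2 of 10 for PTX in KO (4.32% of all genes), at 3.08 (SE 0.92) and 0.52 (SE 0.16). They were also the 2 of 10 between KO and WT after PTX (3.55% of all genes), at 2.24 (SE 0.87) and 0.45 (SE 0.16). Their adjusted p was 0.993 to 0.999 in edgeR. Like *Gria1*, both had all 4 libraries of low total above the other 7, with *Slc1a3* at 2.26 to 2.93 against 1.74 to 2.17 FPKM.

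For each member, the genes whose log2(FPKM + 1) followed it most closely over the 11 libraries were sought among all genes tested. These are descriptions over libraries that differ in total, tissue content and sex. *Grik1* was followed by *Scn11a*, the sodium channel Nav1.9 of nociceptors (Pearson r = 0.989), which had 76.4 FPKM in WT_V 2 and 109.2 FPKM in KO_P 3, the lowest and highest libraries of both genes. Its second was *Wipf3* (r = 0.969). *Gria1* was followed by *Camkv* (r = 0.957) and by *Slc1a2* (r = 0.952). *Camkv* was at 1.06 to 2.29 FPKM in the 4 libraries of low total and at most 0.39 FPKM in the others. The closest genes were *Tbcel* (r = 0.942) and *Rps6ka5* (r = 0.940) for *Grik2*, *Gga1* (r = 0.934) and *Lypla2* (r = 0.930) for *Grik5*, *Msh3* (r = 0.943) and *Eif4g3* (r = 0.940) for *Gria2*, and *Mphosph8* (r = 0.949) and *Pgm2l1* (r = 0.942) for *Gria4*. For *Grin1* they were *Pnmal2* (r = 0.935) and *Sh3bp4* (r = 0.928), for *Grin3a* *Thsd7a* (r = 0.906) and *Ccdc96* (r = 0.892), for *Grm4* *Ak5* (r = 0.953) and *Arhgef4* (r = 0.944), and for *Grm7* *Cxxc4* (r = 0.962) and *Zbtb20* (r = 0.959). Among the members themselves, r ranged from -0.73 to 0.84 over the 45 pairs, with a median of 0.29.

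**Figure D5:**
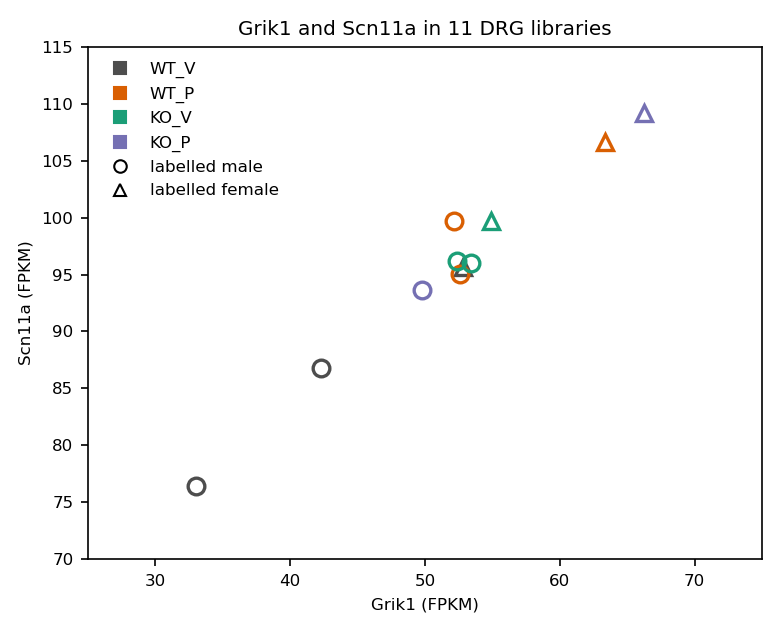
*Scn11a* (y axis, FPKM) against *Grik1* (x axis, FPKM) in the 11 libraries, coloured by group, with triangles for libraries labelled female; both axes start above 0. The points lie close to a line from WT_V 2 (33.0 and 76.4 FPKM) to KO_P 3 (66.3 and 109.2 FPKM), and each group's female library has its highest *Grik1*.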

How the data were processed

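RNA-Seq was done by the authors on poly(A) RNA of DRGs with a stranded kit. Per the labels, cutadapt, FastQC, HISAT2 and StringTie were used with mm10, with no versions given. The authors deposited FPKM values, scaled for length and library size, and estimated counts without normalization, in 1 table. Groups and replicate numbers came from the labels' descriptions, and the titles number the KO_P libraries differently. The block by number and the pairing of WT_V with KO_P rest on that choice. Nothing used here says how many mice or ganglia a library holds, so p-values measure the spread between libraries.

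Counts were rounded and tested with edgeR 4.0.16 (quasi-likelihood test, TMM, R 4.3.3) in one fit of all 11 libraries with group and sex, over genes with mean FPKM of at least 0.5, with Benjamini-Hochberg adjustment over 15087 genes and a threshold of 0.05. Standard errors were taken as the log2 fold change over the root of the F statistic. Alternatives used DESeq2 1.42.0, limma 3.58.1 on log2(FPKM + 1), other scalings, filters and covariates, and each library left out. Shares and ratios were computed from FPKM with Python 3.11.15. The edgeR step was tested on simulated data.

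The members and all gene lists were chosen with earlier results of these data known. Named genes were the members, the 3 highest genes of each other list and any past the threshold, the 2 genes most like each member, and the targeted gene. Other genes were named after their values were seen. Deviations of same-numbered libraries from their group means correlated at 0.11 to 0.23 between WT_V and KO_V. They correlated at 0.11 to 0.25 between WT_V and KO_P. All of these were over 0.1, so by that rule the numbers paired WT_V with each of these groups, though the labels state no pairing. Sex was not removed from the deviations, and number 3 is labelled female in each group. Between WT_V and WT_P the correlations ran from -0.16 to 0.036. Of the 10 members, 7 had the same coordinates in GENCODE M21, 6 overlap another gene on their strand and 3 an antisense gene. The strand setting of the counting is not given in the sources used here. One item is not reported here.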

Additional observations from a re-analysis of the deposited data

How the results depend on the processing

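Of 330 recounts of members or other glutamate genes called, over 8 comparisons and up to 22 alternatives each, 329 gave 0 and 1 gave 1, *Grik1* for PTX in WT in DESeq2. Over all genes, DESeq2 called 309, 42, 29 and 10 genes in the pairwise comparisons (PTX in WT, KO against WT controls, PTX in KO, KO against WT after PTX), where edgeR called 1, 1, 1 and 2. Without WT_V 3, edgeR called 30 for PTX in WT. The replicate block changed no call of a member, and under it *Grik1* in KO against WT after PTX was 0.026. With the 3 WT_V libraries alone, the number of resolved neighbours in the order of levels went from 5 to 0, since p cannot then pass, with *Gria4* to *Grik5* at -0.075 and *Gria2* to *Grin3a* at -0.0049. Directions turned only in values that no test called. Without the libraries under 60000000 counts, PTX in WT was -0.029 for *Grik2*, -0.036 for *Gria4* and -0.058 for *Grin3a*, and KO against WT controls was -0.045 for *Grik2* and 0.048 for *Gria1*. KO against WT after PTX turned to 0.050 for *Grik1* without the sex term and to 0.00036 for *Gria4* with the groups compared alone. The cause of these turns was not tested.

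With each library left out in turn, the following log2 fold changes took both signs. For PTX in WT, *Gria1* ran from -0.043 to 0.20 and *Grin3a* from -0.010 to 0.11. For KO against WT controls, *Grik2* ran from -0.032 (without WT_V 1) to 0.34, *Gria1* from -0.17 to 0.070 and *Grin3a* from -0.010 to 0.12. For PTX in KO, *Grik1* ran from -0.091 to 0.14, *Grik5* from -0.033 to 0.27, *Gria4* from -0.21 to 0.032, *Grm4* from -0.015 to 0.050 and *Grm7* from -0.027 to 0.16. For KO against WT after PTX, *Grik1* ran from -0.082 to 0.089, *Gria4* from -0.13 to 0.11 and *Grm7* from -0.0072 to 0.18. Leaving out either KO_P library leaves 1 treated KO library, which is assumed to vary like the others. Share differences in percentage points also took both signs. For KO against WT after PTX, *Gria2* ran from -0.67 to 1.56 and *Grik4* plus *Grik5* from -1.02 to 1.65. *Grik4* plus *Grik5* ran from -1.43 to 1.07 for PTX in KO. Averaged over both treatments, KO against WT ran from -0.84 to 0.028 for *Gria2* and from -5.18 to 0.56 for *Grin3a*, and PTX over both genotypes ran from -4.36 to 0.92 for *Grin3a*.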
